A study of Mus musculus and Acomys cahirinus with 16 samples.

Results

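The collagen genes were taken as every gene whose symbol reads Col, a number, the letter a and a number, apart from Col17a1, and 43 such genes were present in the mouse table of 56980 gene identifiers. The same 43 symbols were present in the spiny mouse table of 19818 symbols. Skin RNA was sequenced from 4 groups of 4 samples: untreated skin of the laboratory mouse (Mus musculus), mouse skin labelled DMBA/TPA, untreated skin of the spiny mouse (Acomys cahirinus), and spiny mouse skin labelled DMBA/TPA. In this classic regimen the carcinogen DMBA damages DNA and the phorbol ester TPA drives the outgrowth of mutated skin cells, and the series title concerns resistance of spiny mice to skin cancer made in this way. Strain, age, sex, dose, the time of sampling, and whether a treated sample was flat skin or a growth are not given in the sources used here, and nothing says whether the samples of a group came from separate animals, so a p-value measures the spread between these samples.

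Collagens are secreted or membrane-bound proteins built of chains that wind into triple helices, and the helix needs a glycine at the start of each Gly-X-Y triplet. Fibril-forming collagens give the dermis its tensile strength, fibril-associated collagens sit on the fibril surface, network collagens such as type IV form the sheets of basement membranes, and collagen VII anchors the epidermal basement membrane to the dermis. Fibroblasts make most of the fibrillar collagen of skin, while keratinocytes, endothelial cells, muscle fibres and Schwann cells contribute to basement membranes.

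The repeat can be read in the genes themselves, where many exons are 54 bases long and hold 6 glycine-led triplets. In the mouse, the fibril-forming genes had between 21 and 32 exons of this length with a glycine codon at every triplet (median 29 over 11 genes), against 1 to 3 in the 6 type IV genes, 2 to 3 in the 6 type VI genes, 4 to 28 in the 9 fibril-associated genes and 0 in the 3 network-forming genes of types VIII and X. One such exon is shown for each of 7 genes that the results turn on, read from the mouse genome GRCm39, the build of the mouse table, with the glycine codons in capitals.

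Col1a1 (chr11:94830730-94830783, plus strand): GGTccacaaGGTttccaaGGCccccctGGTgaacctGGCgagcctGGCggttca
Col1a2 (chr6:4515481-4515534, plus strand): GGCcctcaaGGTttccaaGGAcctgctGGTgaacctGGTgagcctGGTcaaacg
Col3a1 (chr1:45364520-45364573, plus strand): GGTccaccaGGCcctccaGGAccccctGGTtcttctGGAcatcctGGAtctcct
Col11a1 (chr3:113901930-113901983, plus strand): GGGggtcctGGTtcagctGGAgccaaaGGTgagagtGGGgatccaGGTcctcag
Col12a1 (chr9:79521631-79521684, minus strand): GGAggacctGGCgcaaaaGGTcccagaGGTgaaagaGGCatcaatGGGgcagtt
Col4a1 (chr8:11295211-11295264, minus strand): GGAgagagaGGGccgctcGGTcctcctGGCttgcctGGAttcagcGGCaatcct
Col18a1 (chr10:76903213-76903266, minus strand): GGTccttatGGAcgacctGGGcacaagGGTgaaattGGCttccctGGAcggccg

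All 7 were picked for a glycine codon at each triplet, and the codons between them differ. The genes shown include some that were called higher with treatment, some called lower and some not called.

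Before the results, the libraries themselves differed in ways that touch them. Total counts ran from 19608787 to 30198281 per mouse library and from 21143918 to 30561256 per spiny mouse library, and CPM here are counts relative to that total after TMM scaling, on which 3 counts equal 0.102 to 0.158 CPM. Markers of the epidermis and of fibroblasts were present in every library. Summed markers of skeletal muscle were lower with treatment in both species, from 13289 to 19370 CPM down to 3117 to 4137 CPM in mouse, and in spiny mouse from 19048 to 23547 CPM down to 6234 to 12918 CPM. Summed markers of growing hair follicles ran the other way between species: 11.3 to 1931 CPM untreated and 19645 to 21180 CPM treated in mouse, against 896 to 9234 CPM untreated and 169 to 2612 CPM treated in spiny mouse. Untreated mouse replicate 2 stood apart, with 1931 CPM of follicle markers where the other 3 untreated mouse libraries had 11.3 to 37.3 CPM, and with the lowest fibroblast marker sum, 803 CPM against 2279 to 2937 CPM. The untreated spiny mouse libraries were not uniform either, with 7787 and 9234 CPM of follicle markers in replicates 1 and 2 against 896 and 2752 CPM in replicates 3 and 4. Untreated spiny mouse Col1a1, Col1a2 and Col3a1 were also higher in replicates 1 and 2 than in replicates 3 and 4.

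Collagen transcripts made up a smaller part of the treated libraries. The 43 genes took 1.34 ± 0.299% of mouse counts untreated and 0.967 ± 0.187% treated (SD, n = 4 each), and the 2 mouse groups overlapped, since treated replicate 2 reached 1.24% and untreated replicate 1 had 1.01%. In spiny mouse the share was 0.866 ± 0.162% untreated and 0.504 ± 0.0849% treated (SD, n = 4 each), with the highest treated library (0.623%) below the lowest untreated one (0.700%). These are bulk samples, in which fewer cells of a type and less RNA per cell cannot be told apart.

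A gene was called changed when the adjusted p of edgeR's quasi-likelihood test was under 0.05 over all genes tested. In mouse, 40 of the 43 collagen genes had counts high enough to test, and 10 were higher and 14 lower with treatment. Of all mouse genes tested 61.2% were called, 25.9% upwards and 35.3% downwards, so the share of collagens called was near the background. In spiny mouse 38 were tested, and 6 were higher and 21 lower, against 28.2% and 26.9% of all genes (55.1% in either direction). The median log2 fold change of the tested collagens was -0.18 in mouse, next to -0.15 over all genes, and -0.75 in spiny mouse, next to -0.01 over all genes. With TMM, DESeq2, upper-quartile or library-size scaling the mouse collagen median differed from that of all genes by -0.03, while these scalings set the median of all mouse genes between -0.05 and -0.38. Without the low-count filter 43 mouse collagens and 38169 mouse genes were tested, against 40 and 19740 with it. The collagen median was then 0.05 and that of all mouse genes -0.46, a difference of 0.51. The spiny mouse collagen median differed from that of all genes by -0.74 under each of the 4. Without untreated mouse replicate 2, 27 mouse collagens were called, the same 24 and also Col5a2, Col16a1 and Col25a1. The calls over all mouse genes rose as well, to 13944 of 20009 tested, from 12085 of 19740 with all libraries.

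The species by treatment term of one fit over 13656 shared genes tested each difference directly. Of 37 collagens in that fit, 20 were called, 14 with spiny mouse minus mouse below 0 and 6 above 0, where 46.1% of all genes were called, 24.7% below 0 and 21.4% above. Without untreated mouse replicate 2 the same 20 were called and also Col1a1, Col4a6 and Col5a3. The called differences over all genes rose as well, to 7711 of 13701 tested, from 6294 of 13656 with all libraries. Both species called Col12a1 and Col18a1 higher, and both called 10 genes lower (Col1a2, Col4a3, Col4a4, Col4a5, Col4a6, Col8a2, Col15a1, Col19a1, Col20a1 and Col22a1). Of all genes tested, 35.3% were called lower in mouse and 26.9% in spiny mouse, and 25.9% and 28.2% higher. The share of all genes called alike in both species was not computed, so these shared counts have no background to be set against. Col11a1 and Col14a1 were called in opposite directions, up in mouse and down in spiny mouse.

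**Figure D1:**
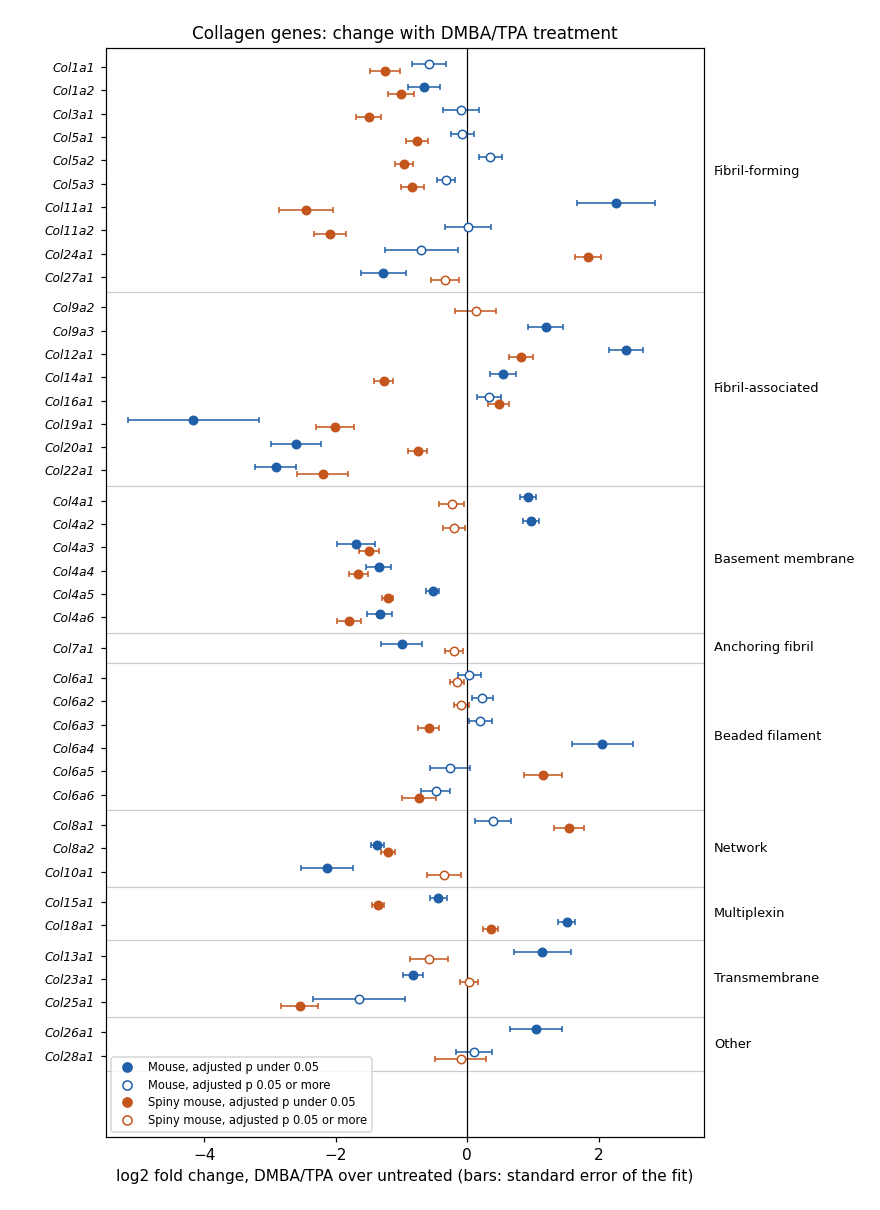
Each point is 1 collagen gene's log2 fold change, DMBA/TPA over untreated, in mouse (blue) or spiny mouse (orange), grouped by structural class, with the standard error of the edgeR fit as a bar; filled points have an adjusted p under 0.05. Among the fibril-forming genes most spiny mouse points lie left of the mouse points, and Col11a1 lies at 2.26 in mouse and -2.45 in spiny mouse.

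Of 10 fibril-forming genes tested in spiny mouse, 8 were lower and 1, Col24a1, was higher, with a median log2 fold change of -0.98, where 26.9% of all genes were called lower and 28.2% higher. Of 10 tested in mouse, 2 were lower and 1 higher, with a median of -0.21, where 35.3% of all genes were called lower and 25.9% higher. Col3a1, the homotrimeric collagen III of compliant fibrils, stood at 2274, 3030, 1661 and 1838 CPM in the untreated spiny mouse libraries and at 733, 812, 669 and 899 CPM in the treated ones. Every treated library was below every untreated one, and the log2 fold change was -1.50 (SE 0.19, edgeR adjusted p = 0.000229). In mouse the same gene ran at 2729, 2299, 4900 and 2909 CPM untreated and 2612, 3959, 2644 and 2787 CPM treated, and these ranges overlapped (log2 fold change -0.10, SE 0.27, adjusted p = 0.774). The species difference for Col3a1 was called (-1.40 on the log2 scale, SE 0.34, adjusted p = 0.00381).

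Collagen I is the main fibril protein of dermis, a heterotrimer of the products of Col1a1 and Col1a2. Spiny mouse Col1a1 was at 1589, 1920, 1060 and 1254 CPM untreated and 560, 606, 444 and 826 CPM treated, without overlap (log2 fold change -1.26, SE 0.23, adjusted p = 0.00148). Spiny mouse Col1a2 went from 1409, 1852, 1063 and 1224 CPM to 636, 696, 558 and 872 CPM (log2 fold change -1.01, SE 0.19, adjusted p = 0.00200). In mouse, Col1a1 was at 2520, 4470, 4558 and 3471 CPM untreated and 2442, 3438, 2047 and 2124 CPM treated, and it was not called (log2 fold change -0.58, adjusted p = 0.0796). It was called without untreated replicate 1 (-0.72, adjusted p = 0.0433) and with upper-quartile or library-size scaling. Mouse Col1a2 just passed the test (log2 fold change -0.66, SE 0.25, adjusted p = 0.0405), from 2496, 2691, 4319 and 3296 CPM to 1899, 2730, 1741 and 1728 CPM. That call was lost with DESeq2 size factors (adjusted p = 0.0681), without the low-count filter, with the correction for gene length and when untreated replicate 3 or 4 or treated replicate 1, 3 or 4 was left out, and without untreated replicate 3 the value was -0.42 (adjusted p = 0.155). The species difference was not called for Col1a1 (-0.68, adjusted p = 0.131, and -0.87, adjusted p = 0.0484, without untreated mouse replicate 2, and -0.78, adjusted p = 0.0430, by DESeq2) or for Col1a2 (-0.35, adjusted p = 0.393).

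Collagen V and collagen XI chains co-assemble with collagen I and II and set fibril diameter. In spiny mouse Col5a1, Col5a2 and Col5a3 were all lower, with log2 fold changes of -0.76, -0.96 and -0.84 and no overlap between groups. In mouse none of the 3 was called, at -0.08, 0.35 and -0.32. Mouse Col5a3 was called lower with upper-quartile (-0.52, adjusted p = 0.0105) and library-size scaling (-0.56, adjusted p = 0.00652) and without untreated replicate 4 (-0.38, adjusted p = 0.0477). Mouse Col5a1 stood at 170, 241, 243 and 188 CPM untreated and 178, 256, 169 and 196 CPM treated, and spiny mouse Col5a1 at 171, 213, 119 and 153 CPM untreated and 87, 98.1, 84.9 and 116 CPM treated. The Col5a2 libraries stood at 140, 149, 207 and 147 CPM untreated and 175, 258, 188 and 199 CPM treated in mouse, against 185, 208, 157 and 168 CPM untreated and 86, 102, 72.3 and 109 CPM treated in spiny mouse. Mouse Col5a2 was called higher when untreated replicate 2 (0.41, adjusted p = 0.0370) or 3 (0.55, adjusted p = 0.0172) was left out, by DESeq2 (0.45, adjusted p = 0.0169) and without the low-count filter (0.50, adjusted p = 0.0357). The Col5a2 species difference was -1.31 (SE 0.23, adjusted p = 0.000275). The difference for Col5a1 was called at -0.69 (adjusted p = 0.0375), a call that was lost in 8 of 16 fits that each left out 1 library (adjusted p between 0.0503 and 0.0879) and with library-size scaling (-0.45, adjusted p = 0.167). That for Col5a3 was not called (-0.52, adjusted p = 0.0799), and was called when mouse untreated replicate 2 or 3 or spiny mouse untreated replicate 3 was left out, by DESeq2 (-0.62) and without the low-count filter (-0.65).

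Col11a1 moved in opposite directions. Mouse libraries held 1.30, 11.3, 2.60 and 1.91 CPM untreated and 19, 23.1, 22.1 and 17.5 CPM treated (log2 fold change 2.26, SE 0.59, adjusted p = 0.00891). The single untreated value above 3 CPM belonged to replicate 2, and without that library the log2 fold change was 3.48. Spiny mouse libraries held 7.08, 7.46, 1.97 and 5.58 CPM untreated and 0.728, 0.786, 1.10 and 1.42 CPM treated (log2 fold change -2.45, SE 0.42, adjusted p = 0.00105), and the species difference was -4.71 (SE 0.80, adjusted p = 0.000230). Its partner chain gene Col11a2 was lower in spiny mouse, from 23.8, 29.9, 16 and 19.3 CPM to 4.28, 4.07, 7.65 and 4.89 CPM (log2 fold change -2.09), and was between 1.06 and 2.98 CPM in every mouse library, where it was not called. Summed cartilage markers, whose tissue also makes collagen XI, were 85.0 to 140 CPM untreated and 265 to 283 CPM treated in mouse, and went from 117 to 175 CPM to 79.1 to 120 CPM in spiny mouse, most of it Sox9 in mouse, which follicle epithelium also expresses. Of the cartilage matrix genes, Acan (aggrecan) was higher in mouse, from 0.122 to 2.89 CPM up to 5.90 to 7.13 CPM (log2 fold change 2.90, adjusted p = 0.0138), Comp and Chad were lower, and Matn1 was at 0 in every mouse library. The part of these markers and of the follicle markers in the Col11a1 values was not tested.

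Among the minor fibrillar genes, Col24a1 was higher in spiny mouse, from 3.54, 2.30, 2.52 and 2.93 CPM to 12.7, 10.3, 7.36 and 10.2 CPM (log2 fold change 1.84, SE 0.20, adjusted p = 9.24e-05), and was not called in mouse (0.570 to 3.82 CPM untreated, 0.735 to 1.41 CPM treated). The species difference was 2.53 with all libraries and 1.61 without untreated mouse replicate 2, and it was called both times. Col27a1 was lower in mouse (log2 fold change -1.28, and -0.71 without untreated replicate 2) and not called in spiny mouse (-0.34), where it was called without treated replicate 4 (-0.56, adjusted p = 0.0166). Its species difference was not called (0.94, adjusted p = 0.0808), and was called without untreated mouse replicate 1 (1.08) and with library-size scaling (1.2). Col2a1, the cartilage fibril gene, was at or below 0.352 CPM in every library and was not tested.

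**Figure D2:**
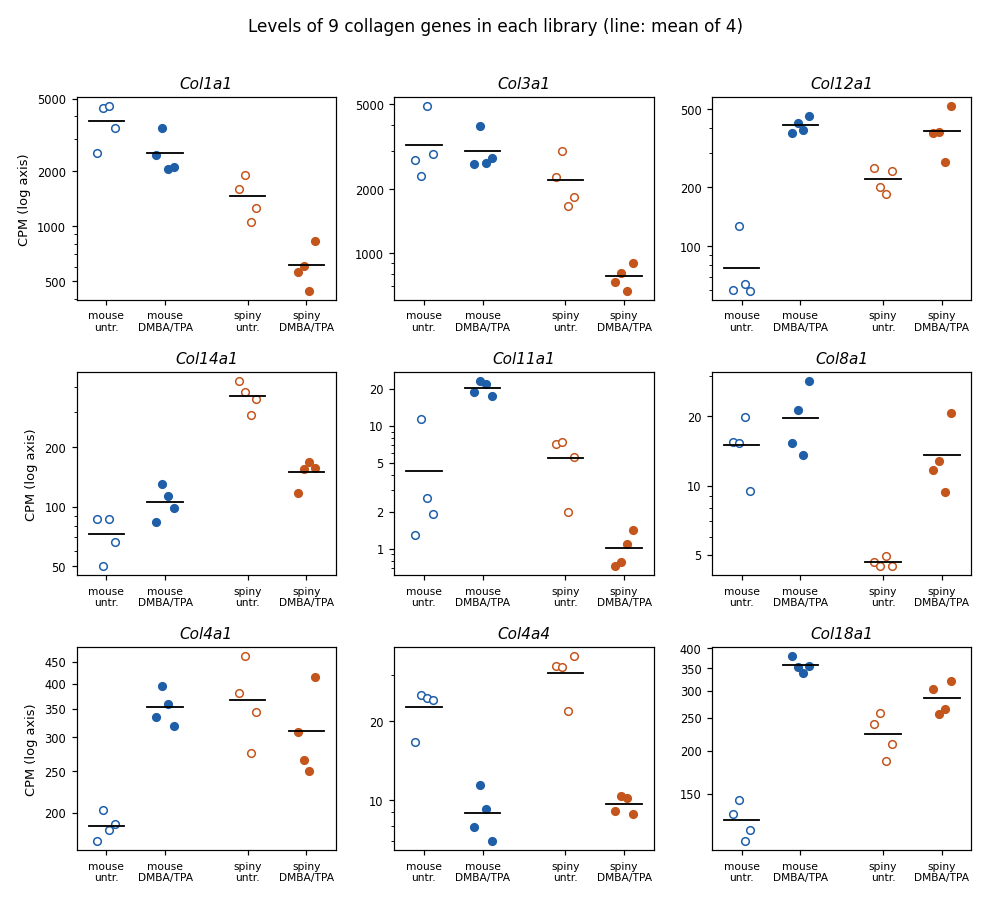
CPM on a log axis of 9 collagen genes in each of the 16 libraries, open points untreated and filled points DMBA/TPA, with a line at the mean of 4. The spiny mouse groups do not overlap for Col1a1 and Col3a1, untreated mouse replicate 2 is the high open point for Col11a1 (11.3 CPM) and Col12a1 (127 CPM), and Col14a1 is the gene whose treated spiny mouse libraries fall to 118 to 169 CPM from 289 to 430 CPM.

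Among the fibril-associated collagens, which lie on fibril surfaces and link them to other matrix, Col12a1 was the abundant gene that rose most in mouse. It was at 60.1, 127, 63.9 and 59.5 CPM untreated and 381, 424, 391 and 462 CPM treated, a log2 fold change of 2.42 (SE 0.26, adjusted p = 8.47e-05). In spiny mouse it was at 252, 201, 185 and 243 CPM untreated and reached 378, 384, 268 and 520 CPM treated (log2 fold change 0.82, SE 0.19, adjusted p = 0.00515). The fold changes differed by -1.60 on the log2 scale (SE 0.33, adjusted p = 0.00109).

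Col14a1 is the gene of a related collagen of dense connective tissue. In spiny mouse it was lower, from 430, 378, 289 and 349 CPM to 118, 155, 169 and 157 CPM (log2 fold change -1.27, SE 0.14, adjusted p = 0.000120). In mouse it went from 86.9, 50.3, 86.7 and 66.4 CPM to 83.7, 130, 113 and 98.0 CPM, with overlap, and a log2 fold change of 0.55 that was narrowly called (SE 0.20, adjusted p = 0.0365) and was not called under upper-quartile scaling (0.36) or library-size scaling (0.32), nor without untreated replicate 4 or treated replicate 3 or 4 (adjusted p between 0.0511 and 0.0822). The species difference of -1.82 was called (SE 0.26, adjusted p = 5.54e-05). Within each library, the log2 ratio of Col14a1 to Col12a1 per length went from 1.65, -0.22, 1.56 and 1.28 to -1.07, -0.59, -0.67 and -1.12 in mouse. In spiny mouse it went from 1.75, 1.89, 1.62 and 1.51 to -0.70, -0.33, 0.31 and -0.75. Treated and untreated ratios did not overlap in either species, and the mean shift was -1.93 in mouse and -2.06 in spiny mouse (exact two-sided permutation p = 0.0286 for each, the smallest that 4 against 4 allows, adjusted p = 0.0571 over 20 ratio tests).

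Col16a1, of the same fibril-associated family, was higher in spiny mouse, from 126, 129, 93.5 and 116 CPM to 136, 140, 155 and 214 CPM (log2 fold change 0.48, adjusted p = 0.0274), a call lost without untreated replicate 3 or 4 (adjusted p = 0.0637 and 0.0584). In mouse it was not called (0.34, adjusted p = 0.135), and was called higher without untreated replicate 2 (0.61, adjusted p = 0.00110) and without the low-count filter (0.48, adjusted p = 0.0484). Col22a1, whose protein sits at the junction of muscle and tendon, was lower in both species, from 1.05 to 1.84 CPM down to 0.149 to 0.220 CPM in mouse and in spiny mouse from 1.23 to 2.82 CPM down to 0.273 to 0.643 CPM. The muscle marker sums above were lower in the same libraries, and their part in that change was not tested. Col20a1 was also lower in both (log2 fold changes -2.60 and -0.76, species difference 1.84, adjusted p = 0.00167). Col19a1 was lower in both at levels near the counting floor, with one untreated mouse library at 5.68 CPM and the other 3 between 0.410 and 1.32 CPM; without it the mouse log2 fold change was -2.68 instead of -4.17. The cartilage collagen IX genes reached at most 4.16 CPM (Col9a3 in mouse, where it was higher, log2 fold change 1.19); Col9a1 was tested in neither species, and Col9a2, tested in spiny mouse alone, was not called there (0.13).

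The type IV genes of basement membranes split by the chain they encode. Col4a1 and Col4a2 encode the chains of the collagen IV found in nearly all basement membranes, including those of vessels. In mouse Col4a1 went from 172, 203, 182 and 188 CPM to 335, 396, 359 and 319 CPM (log2 fold change 0.92, SE 0.12, adjusted p = 0.000246), and Col4a2 went from 106, 140, 110 and 116 CPM to 214, 257, 227 and 224 CPM (0.97, SE 0.12, adjusted p = 0.000212). In spiny mouse neither was called: Col4a1 had 380, 463, 276 and 343 CPM untreated and 309, 266, 250 and 415 CPM treated, with a log2 fold change of -0.24. Spiny mouse Col4a2 had 323, 361, 230 and 269 CPM untreated and 253, 229, 212 and 334 CPM treated, with a log2 fold change of -0.20. Both species differences were called, at -1.16 (SE 0.23, adjusted p = 0.000873) and -1.17 (SE 0.22, adjusted p = 0.000519). The summed endothelial markers were 230 to 254 CPM untreated and 157 to 198 CPM treated in mouse, and 284 to 356 CPM untreated and 309 to 369 CPM treated in spiny mouse. Of these 8 genes, 5 were called lower and 0 higher in mouse, and 2 lower and 1 higher in spiny mouse. Of all genes tested, 35.3% were called lower and 25.9% higher in mouse, and 26.9% and 28.2% in spiny mouse. The part of these markers in the Col4a1 and Col4a2 values was not tested.

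The other 4 chains, which make the more restricted networks, were lower in both species. Col4a3 went from 7.33, 10.8, 12.1 and 13.3 CPM to 2.05, 5.14, 3.38 and 2.90 CPM in mouse. The spiny mouse values were 14.7, 12.3, 9.63 and 14.1 CPM untreated and 5.05, 4.68, 4.46 and 3.79 CPM treated. Col4a4 went from 16.8, 25.3, 24.5 and 24.2 CPM to 7.93, 11.4, 9.31 and 7.02 CPM in mouse, and in spiny mouse from 32.5, 32.4, 21.9 and 35.4 CPM to 9.14, 10.4, 10.2 and 8.86 CPM. Neither gene's groups overlapped in either species. The log2 fold changes of this pair were between -1.35 and -1.69 in both species, and neither species difference was called (0.19, SE 0.33, and -0.31, SE 0.24).

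Col4a5 and Col4a6 encode chains that assemble together in epidermal and smooth muscle basement membranes. Mouse Col4a6 went from 33.7, 56.7, 33.1 and 42.2 CPM to 19.5, 16.7, 14 and 15.6 CPM (log2 fold change -1.33, SE 0.19, adjusted p = 0.000356), and spiny mouse Col4a6 from 16, 14.4, 11 and 15.2 CPM to 3.14, 3.68, 5.45 and 3.98 CPM (-1.79, SE 0.19, adjusted p = 8.12e-05). Col4a5 went from 37.6, 47.2, 43.7 and 41.7 CPM to 32.6, 28.9, 28.1 and 28.6 CPM in mouse. Its spiny mouse values were 41.3, 41.4, 42.3 and 40.9 CPM untreated and 17.2, 19.2, 19.9 and 15.5 CPM treated. Col4a5 fell less in mouse (-0.53) than in spiny mouse (-1.21), and that difference was called (-0.68, SE 0.13, adjusted p = 0.000484, and -0.45, adjusted p = 0.0168, with library-size scaling). Summed smooth muscle markers stood at 1495 to 1775 CPM untreated and 778 to 953 CPM treated in mouse, where 4 of 8 genes were called lower and 1 higher. Des, which skeletal muscle also expresses, made up most of the mouse sum (a mean of 1143 CPM untreated and 298 CPM treated), and Acta2 was the gene called higher (1.02, adjusted p = 0.000173). In spiny mouse the sum was 1989 to 2365 CPM untreated and 1267 to 1801 CPM treated, with 6 of 8 genes called lower and 0 higher. Summed basal keratinocyte markers stood at 7390 to 10485 CPM untreated and 14443 to 19241 CPM treated in mouse, with 2 of 8 called higher and 3 lower, and at 8581 to 10409 CPM and 17276 to 21591 CPM in spiny mouse, with 5 called higher and 1 lower. Krt14 was called higher in both species (2.16 and 1.78) and Krt15 lower in both (-2.05 and -1.64). Of all genes tested, 61.2% were called in mouse and 55.1% in spiny mouse. The part of either marker list in the type IV values was not tested.

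These 6 genes lie as 3 pairs that start head to head. In both species the annotated starts of Col4a1 and Col4a2 lie 21 bases apart with their first exons overlapping, and those of Col4a3 and Col4a4 lie 72 bases apart. The starts of Col4a5 and Col4a6 lie 1309 bases apart in mouse and 1281 in spiny mouse. Within libraries the Col4a1 to Col4a2 ratio per length had mean log2 values of 0.49 and 0.44 in mouse and 0.28 and 0.24 in spiny mouse, untreated and treated (exact permutation p = 0.371 in each). The Col4a3 to Col4a4 ratio had means of -0.99 and -1.37 in mouse (exact permutation p = 0.0857) and -1.05 and -0.89 in spiny mouse (exact permutation p = 0.257), with overlap in both. The Col4a5 to Col4a6 ratio went from 0.41, -0.02, 0.65 and 0.23 to 0.98, 1.04, 1.25 and 1.12 in mouse, without overlap (exact permutation p = 0.0286, adjusted p = 0.0571), and from a mean of 1.55 to one of 2.15 in spiny mouse, with overlap. The counting took no account of strand, so fragments from the overlapping first exons of Col4a1 and Col4a2 cannot be assigned to either.

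The starts of 3 of these genes are shown with those of 2 fibrillar genes that were lower in spiny mouse, as RefSeq windows of the mouse assembly GRCm38.p6, from 250 bases before to 50 bases after the annotated start. Of the 43 genes, 34 had a window, 3 of them with 2, which makes 37 windows. Capitals mark matches on either strand, which may overlap, to the GC box with the letters GGGCGG, to the box named after its letters CCAAT, to the core promoter box searched as TATAAA, and to the AP-1 element, also called the TPA response element, searched as TGACTCA.

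Col4a2 (chr8:11312555-11312854, plus strand): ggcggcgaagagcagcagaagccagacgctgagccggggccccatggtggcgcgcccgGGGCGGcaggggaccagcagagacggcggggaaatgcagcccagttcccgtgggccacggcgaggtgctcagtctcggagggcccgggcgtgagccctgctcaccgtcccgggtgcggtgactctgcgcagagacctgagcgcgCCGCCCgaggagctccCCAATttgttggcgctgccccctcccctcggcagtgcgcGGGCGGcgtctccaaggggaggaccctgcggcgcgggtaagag
Col4a4 (chr1:82586800-82587099, minus strand): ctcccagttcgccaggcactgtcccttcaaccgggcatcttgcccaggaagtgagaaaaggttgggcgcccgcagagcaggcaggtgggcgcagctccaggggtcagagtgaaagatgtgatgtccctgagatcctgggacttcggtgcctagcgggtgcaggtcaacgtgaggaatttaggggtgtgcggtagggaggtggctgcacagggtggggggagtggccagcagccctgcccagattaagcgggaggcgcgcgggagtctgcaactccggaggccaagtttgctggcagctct
Col4a6 (chrX:141474027-141474326, minus strand): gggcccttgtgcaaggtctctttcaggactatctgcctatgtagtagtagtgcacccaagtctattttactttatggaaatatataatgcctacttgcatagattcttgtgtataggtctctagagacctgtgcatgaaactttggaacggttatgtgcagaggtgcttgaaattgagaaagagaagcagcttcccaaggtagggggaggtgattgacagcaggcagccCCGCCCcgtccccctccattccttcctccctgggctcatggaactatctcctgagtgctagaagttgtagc
Col1a2 (chr6:4505368-4505667, plus strand): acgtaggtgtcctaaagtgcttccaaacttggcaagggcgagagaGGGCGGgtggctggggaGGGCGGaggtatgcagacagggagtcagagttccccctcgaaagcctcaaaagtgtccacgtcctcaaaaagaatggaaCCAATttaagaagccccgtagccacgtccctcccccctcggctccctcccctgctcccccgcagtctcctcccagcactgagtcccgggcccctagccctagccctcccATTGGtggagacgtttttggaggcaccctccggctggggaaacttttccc
Col3a1 (chr1:45311288-45311587, plus strand): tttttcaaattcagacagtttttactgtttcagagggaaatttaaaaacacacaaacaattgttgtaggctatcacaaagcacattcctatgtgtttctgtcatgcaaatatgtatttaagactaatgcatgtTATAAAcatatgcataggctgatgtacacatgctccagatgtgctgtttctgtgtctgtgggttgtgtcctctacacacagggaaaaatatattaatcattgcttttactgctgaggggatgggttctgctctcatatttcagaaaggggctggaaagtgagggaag

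The Col4a2 window, which holds the start of Col4a1 on the other strand, has 3 GC box matches and 1 CCAAT match and is 73.7% G and C. The Col3a1 window is 37.7% G and C and has 1 match to TATAAA. GC box letters stood in 23 of the 37 collagen windows and in 35.7% of all 32851 windows, CCAAT in 12 and in 37.4%, TATAAA in 4 and in 13.6%. TGACTCA stood in 1 collagen window, that of Col6a1, and in 5.20% of all windows. A match is a description of the letters, and its distance from the annotated start was not assessed. A window without one says nothing of the factor.

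Col7a1 encodes the anchoring fibril collagen made by keratinocytes and fibroblasts. In mouse it went from 72.4, 201, 71.5 and 111 CPM to 54.8, 64.4, 49.4 and 59.9 CPM (log2 fold change -1.0, SE 0.31, adjusted p = 0.0196). The high untreated value was again replicate 2, and without it the log2 fold change was -0.48, still called (adjusted p = 0.0165). Leaving out treated replicate 1, 2 or 3 ended the call (adjusted p between 0.0525 and 0.0564). In spiny mouse Col7a1 was not called (47.1 to 58.6 CPM untreated, 41.9 to 62.05 CPM treated) unless treated replicate 4, the highest, was left out (-0.35, adjusted p = 0.0112), and the species difference of 0.80 was not called either (adjusted p = 0.0848), though it was without untreated mouse replicate 1 (0.95, adjusted p = 0.0347) or 3 (0.92, adjusted p = 0.0467), and with library-size scaling (1.04, adjusted p = 0.0398).

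Collagen VI forms beaded filaments that link cells to fibrils, and its chain genes Col6a1 and Col6a2 were called in neither species. Col6a1 was at 194, 152, 215 and 160 CPM untreated and 162, 237, 155 and 183 CPM treated in mouse, and at 332, 402, 311 and 314 CPM untreated and 310, 313, 263 and 335 CPM treated in spiny mouse. Col6a2 was at 134 to 186 CPM untreated and 150 to 228 CPM treated in mouse, and in spiny mouse at 333, 390, 299 and 318 CPM untreated and 316, 326, 268 and 350 CPM treated. The groups overlapped for both genes in both species. The log2 fold changes of both genes lay between -0.15 and 0.23. Col6a3 was lower in spiny mouse, from 459, 531, 367 and 476 CPM to 314, 296, 232 and 377 CPM (log2 fold change -0.59, SE 0.16, adjusted p = 0.0111, with overlap), a call that was lost with a correction for gene length (adjusted p = 0.0505). Its species difference was called (-0.79, adjusted p = 0.0154) except with upper-quartile or library-size scaling. Col6a6 was lower in spiny mouse, from 5.0, 5.95, 5.75 and 5.85 CPM to 5.5, 3.14, 2.2 and 2.7 CPM (-0.74, adjusted p = 0.0352), a call lost when untreated replicate 2, 3 or 4 or treated replicate 2, 3 or 4 was left out. In mouse Col6a6 was not called (-0.48, adjusted p = 0.0830). It was called without untreated replicate 4 (-0.59, adjusted p = 0.0433), with upper-quartile or library-size scaling (-0.70 and -0.73) and with the replicate number as a block (-0.46, adjusted p = 0.0235). Of the minor chains, Col6a5 was higher in spiny mouse, from 9.66, 16.8, 28.6 and 17.1 CPM to 47.5, 41.1, 29.2 and 43.7 CPM (log2 fold change 1.16, SE 0.29, adjusted p = 0.00788). Mouse Col6a5 was not called, at 2.92 to 9.04 CPM untreated and 4.41 to 6.24 CPM treated, except without untreated replicate 4 (-0.50, adjusted p = 0.0458), and the species difference was 1.42 (adjusted p = 0.0160). Col6a4 was higher in mouse at low levels (0.0456 to 0.351 CPM untreated, 0.683 to 1.45 CPM treated) and was not tested in spiny mouse.

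Of the network-forming short-chain collagens, Col8a2, a chain of the collagen VIII of vessel walls and specialised basement membranes, went from 25.9, 28.8, 28.9 and 29.4 CPM to 11.1, 11.2, 11.6 and 9.88 CPM in mouse. In spiny mouse it went from 25.4, 26.8, 25.8 and 22.3 CPM to 10.5, 9.29, 11.3 and 12.3 CPM. The log2 fold changes were -1.37 and -1.21 (SE 0.10 each), and their difference of 0.16 was not called (SE 0.14, adjusted p = 0.345), except with library-size scaling (0.39, adjusted p = 0.0335). Col8a1, the partner chain, was higher in spiny mouse, from 4.66, 4.48, 4.94 and 4.48 CPM to 11.6, 12.8, 9.37 and 20.7 CPM (log2 fold change 1.55, SE 0.22, adjusted p = 0.000434). In mouse it had 9.48 to 19.8 CPM untreated and 13.6 to 28.4 CPM treated and was not called, and the species difference was 1.16 (adjusted p = 0.0204, and 0.0595 without untreated mouse replicate 3). Col10a1, known from growth-plate cartilage, was lower in mouse (2.52 to 8.95 CPM untreated, 0.780 to 1.42 CPM treated, log2 fold change -2.13) and not called in spiny mouse, and in both species its exons overlap those of Nt5dc1 on the other strand.

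Collagens XV and XVIII are the multiplexins of basement membrane zones. Col18a1, the source of the fragment endostatin, went from 131, 144, 109 and 117 CPM to 379, 353, 340 and 355 CPM in mouse (log2 fold change 1.51, SE 0.13, adjusted p = 2.21e-05). In spiny mouse it went from 240, 258, 187 and 209 CPM to 304, 256, 265 and 321 CPM, with overlap (0.36, SE 0.12, adjusted p = 0.0261), and that call was lost without untreated replicate 3 or 4 or treated replicate 1 or 4 (adjusted p between 0.0577 and 0.0697). The difference between species was -1.15 (SE 0.17, adjusted p = 5.62e-05). Col15a1 was lower in both, more so in spiny mouse, where it went from 168, 183, 146 and 167 CPM to 59.4, 61.0, 66.7 and 71.8 CPM (-1.36, against -0.44 in mouse, difference -0.92, adjusted p = 0.000241). The mouse call for Col15a1 was lost without untreated replicate 3 or treated replicate 3 or 4 (adjusted p between 0.0548 and 0.0632) or without the low-count filter (-0.29, adjusted p = 0.114), and the value was -0.68 with library-size scaling.

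The transmembrane collagens were less abundant. Col23a1 was lower in mouse, from 33.9, 33.0, 29.2 and 46.6 CPM to 21.4, 22.5, 18.8 and 17.6 CPM (log2 fold change -0.83, SE 0.16, adjusted p = 0.00172), and in spiny mouse it had 21.0 to 32.3 CPM untreated and 24.6 to 32.3 CPM treated (0.02, not called). That difference was called (0.85, SE 0.21, adjusted p = 0.00450). Col25a1 was lower in spiny mouse, from 2.86 to 5.07 CPM down to 0.364 to 0.822 CPM (log2 fold change -2.55). In mouse it was not called (-1.65, adjusted p = 0.0651), and was called lower when untreated replicate 1, 2 or 4 was left out and with upper-quartile (-1.85) or library-size scaling (-1.89). Untreated replicate 3, at 3.44 CPM against 0.501 to 1.23 CPM in the others, was the high library, and without it the species difference was called (-1.86, adjusted p = 0.0230). Col13a1, between 0.529 and 3.56 CPM in the mouse libraries, was called higher in mouse by a narrow margin (log2 fold change 1.14, adjusted p = 0.0431). Without untreated replicate 2 the value was 1.78 and called, and without any other single mouse library the call was lost (adjusted p between 0.0556 and 0.0979), as it was with upper-quartile (0.90) and library-size scaling (0.87). Its species difference was called (-1.72, adjusted p = 0.0155). Col26a1 and Col28a1 were at or below 3.25 CPM in every library, and Col26a1 was called higher in mouse (1.04, adjusted p = 0.0452), a call lost without untreated replicate 1 or 4 or any 1 treated library, with upper-quartile (0.82) or library-size scaling (0.79), without the low-count filter (1.19) and with the replicate block (1.12).

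The make-up of the collagen transcripts also differed between treated and untreated libraries. Col1a1, Col1a2 and Col3a1 together took 82.2 ± 2.86% of collagen counts in untreated mouse skin and 71.4 ± 2.49% in treated (SD, n = 4 each), and 57.9 ± 3.22% and 40.9 ± 1.40% in spiny mouse (SD, n = 4 each). The type IV genes took 3.53 ± 0.687% untreated and 6.19 ± 0.685% treated in mouse, and 8.82 ± 0.305% and 11.9 ± 0.832% in spiny mouse (SD, n = 4 each). Col12a1, Col14a1 and Col16a1 together took 2.2 ± 0.526% and 6.43 ± 0.926% in mouse, and 8.2 ± 1.19% and 13.8 ± 0.567% in spiny mouse (SD, n = 4 each). In none of these 3 shares did the groups of a species overlap, and they were not tested. A share of counts is not corrected for length, and the 2 tables count on different annotations, so levels of the 2 species are not compared here.

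**Figure D3:**
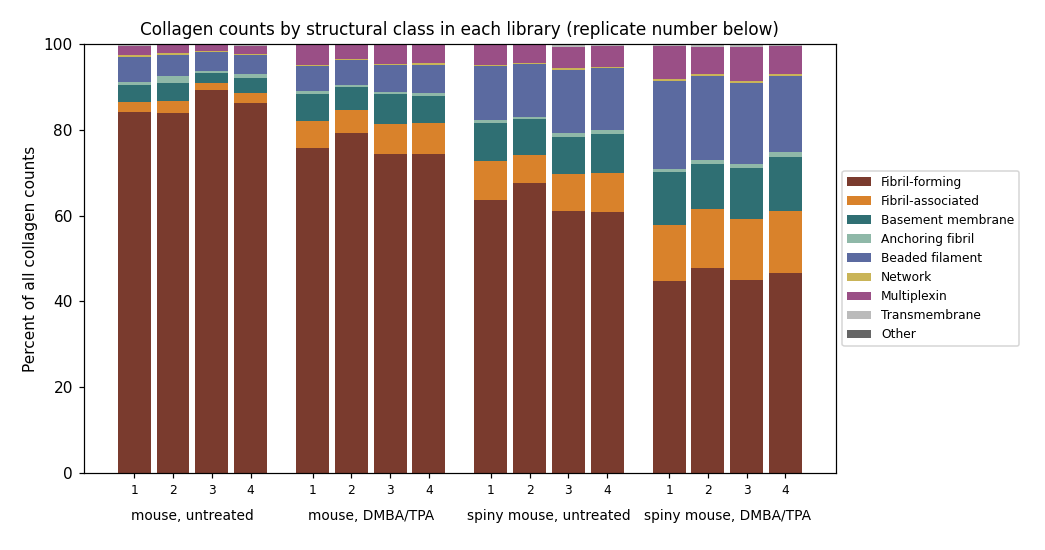
Percent of all collagen counts taken by each structural class in each of the 16 libraries. The fibril-forming share is 83.9 to 89.2% in untreated and 74.3 to 79.3% in treated mouse libraries, and 60.8 to 67.6% and 44.7 to 47.7% in spiny mouse.

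Per length, the 3 most abundant collagens in untreated mouse skin were Col1a1 (572 ± 146 CPM per kb), Col3a1 (327 ± 118) and Col1a2 (258 ± 66.0), all in CPM per kb of the deposited gene length (SD, n = 4), and the order of the last pair depends on the length used. With the length of the canonical transcript Col1a2 stood at 597 and Col3a1 at 577 CPM per kb, next to 633 for Col1a1. In untreated spiny mouse skin Col3a1 led at 397 ± 110 CPM per kb, followed by Col1a2 (266 ± 65.2) and Col1a1 (245 ± 63.8), the last of which differ by less than their spread (SD, n = 4). Col6a1 was the fourth in both species, at 41.1 ± 6.70 and 84.8 ± 10.6 CPM per kb (SD, n = 4).

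**Figure D4:**
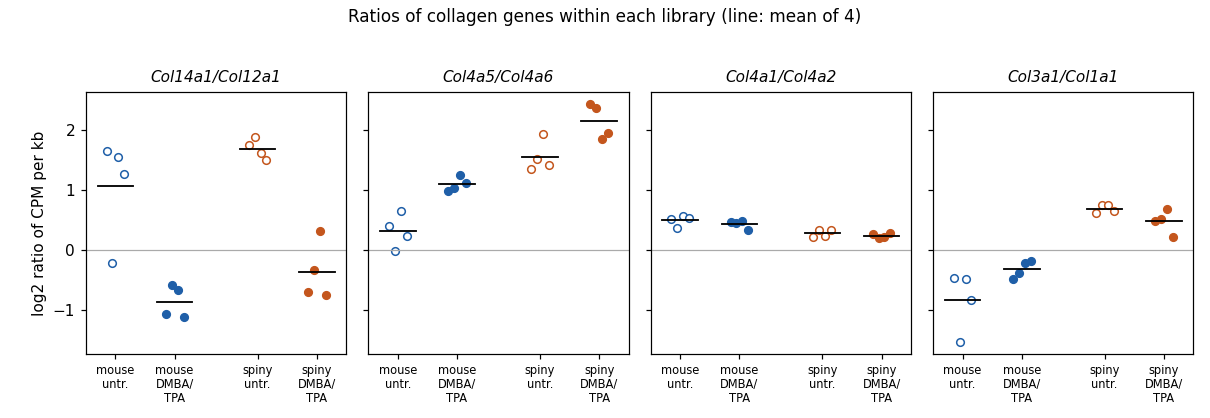
Log2 ratio of CPM per kb of 4 gene pairs within each library, open points untreated and filled points DMBA/TPA, with a line at the mean of 4. Col14a1 over Col12a1 moves from mostly above 0 to mostly below 0 in both species, and Col4a1 over Col4a2 stays between 0.19 and 0.56 in all 16 libraries.

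Of 10 gene pairs compared as ratios in the 2 species, none passed the adjusted threshold in this exact test, whose smallest adjusted value was 0.0571. With 4 samples against 4 no raw p can be below 0.0286, so no shift alone, however large, could bring a pair under the threshold. The lack of a pass therefore does not show that a ratio was unchanged. Of the 20 comparisons, 10 reached that smallest raw p. One was Col5a1 over Col1a1, whose mean log2 ratio was -4.52 untreated and -4.02 treated in mouse, and -3.56 and -3.04 in spiny mouse, without overlap in either. Another was Col1a1 over Col1a2 in spiny mouse, which went from -0.12 to -0.38, while the mouse ratio overlapped (1.15 and 1.23). The level of that mouse ratio depends on the length used. Before taking logs it was 2.21 untreated and 2.34 treated on the deposited lengths, and 1.06 and 1.12 with canonical transcript lengths. Col6a3 over Col6a1 went from -1.0 to -1.44 in spiny mouse without overlap and overlapped in mouse.

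The enzymes that hydroxylate and fold collagen chains in the endoplasmic reticulum were called in both directions. Of 19 tested in mouse, 3 were higher and 4 lower, and of 19 in spiny mouse 6 were higher and 3 lower, where 61.2% of all mouse genes and 55.1% of all spiny mouse genes were called. Plod2, the lysyl hydroxylase that sets up stable telopeptide cross-links, moved in opposite directions, from 2.55 to 7.02 CPM up to 14.6 to 18.6 CPM in mouse (log2 fold change 1.87, SE 0.29), and in spiny mouse from 10.8 to 24.5 CPM down to 2.05 to 4.39 CPM (-2.38, SE 0.30). The species difference of -4.25 was called (adjusted p = 3.34e-06). P4hb, a subunit of prolyl 4-hydroxylase and a disulphide isomerase in its own right, was higher in both (1.06 and 0.42) and more so in mouse (species difference -0.64, adjusted p = 0.0261). P3h2, a prolyl 3-hydroxylase, was lower in mouse (-0.48) and higher in spiny mouse (0.55), and that difference was called (1.03, adjusted p = 5.01e-05). P4ha3, a catalytic subunit of prolyl 4-hydroxylase, was called higher in spiny mouse at low levels (1.62, adjusted p = 0.00218) and not called in mouse (1.0), and Colgalt2, a collagen galactosyltransferase, was lower in mouse (-0.95) and not called in spiny mouse (-0.14).

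Of the enzymes that trim propeptides or cross-link fibrils, 4 of 12 tested were higher and 3 lower in mouse, and 2 of 13 were higher and 5 lower in spiny mouse, shares near the 61.2% and 55.1% of all genes called. Loxl2, a lysyl oxidase, went from 25.1 to 37.8 CPM up to 37.3 to 46.9 CPM in mouse (0.44, adjusted p = 0.0289), and in spiny mouse from 38.5 to 51.5 CPM down to 17.7 to 21.3 CPM (-1.23, adjusted p = 4.13e-05), a called difference of -1.67. Adamts14, a procollagen N-proteinase, was lower in both (-2.48 and -1.11), and Adamts3, a related proteinase, was higher in mouse (1.5, adjusted p = 0.0345) and not called in spiny mouse (0.20). Tll1, a C-proteinase of the BMP1 family, was called up in mouse (0.53) and down in spiny mouse (-1.21), a called difference of -1.74 (adjusted p = 2.19e-05), and its relative Tll2 was higher in spiny mouse (2.23) and too scarce to test in mouse. Pcolce2, an enhancer of those C-proteinases, was lower in both (-1.87 and -1.05).

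Of 12 genes tested for proteins that bind fibrils, 7 were lower and 0 higher in spiny mouse, and 5 were lower and 2 higher in mouse. In both species the share called was near that of all genes (55.1% and 61.2%), of which 26.9% were lower and 28.2% higher in spiny mouse and 35.3% and 25.9% in mouse. Postn (periostin) and Bgn (biglycan) were the genes higher in mouse, at 0.72 and 1.18. Postn was lower in spiny mouse (-0.69, species difference -1.40, adjusted p = 2.44e-05), whereas Bgn was not called there (0.03, difference -1.15, adjusted p = 0.000329). Tnxb (tenascin X) was lower in both (-1.43 and -0.66), as was Ogn (osteoglycin; -1.32 and -0.92). Dpt (dermatopontin) was lower in spiny mouse (-1.02) and in mouse had -0.91 (adjusted p = 0.0550), with no called difference. In these libraries the 10 fibroblast markers summed to 803 to 2937 CPM untreated and 1004 to 1326 CPM treated in mouse, and to 1707 to 2009 CPM untreated and 2075 to 2551 CPM treated in spiny mouse; 1 was higher and 2 lower in mouse, 2 higher and 3 lower in spiny mouse, and Thy1 alone rose from 335 to 1069 CPM on average in spiny mouse.

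Of the collagen receptors, 2 of 9 tested were higher and 3 lower in each species, near the share of all genes called (61.2% in mouse, 55.1% in spiny mouse). Itga11 and Ddr1, receptors for fibrillar collagen and for collagens in epithelia, were higher in mouse (0.52 each) and lower in spiny mouse (-1.05 and -0.59), and both differences were called (-1.57 and -1.11). Itga2 was lower in mouse (-0.63) and higher in spiny mouse (0.51), a called difference of 1.13. Ddr2, the receptor of mesenchymal cells, was lower in both (-0.62 and -0.36). Itgb1, the beta chain shared by the collagen-binding integrins, was higher in spiny mouse (0.98) and not called in mouse (0.29), a called difference of 0.69 (adjusted p = 0.00702). Lair1, a collagen receptor of immune cells, was lower in mouse (-1.10) and not called in spiny mouse (0.64), a called difference of 1.74 (adjusted p = 0.00542).

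Treated and untreated values did not overlap for 21 of the 40 collagens tested in mouse, where 58.6% of all genes tested did not overlap, and for 24 of the 38 tested in spiny mouse, against 50.9%. Counts of some members hold fragments that could belong to another gene: exons of Col9a3 and Tcfl5 overlap on opposite strands in both species, those of Col3a1, Col7a1 and Col20a1 overlap another annotated gene on the same strand in mouse (Gm54819, Mir711 and 9230112E08Rik), as does Col23a1 in spiny mouse (Phykpl), and Col4a3, Col5a1, Col6a4, Col6a6, Col15a1 and Col22a1 each overlap a non-coding or predicted gene on the other strand in mouse.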

How the data were processed

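RNA of 16 skin samples was extracted with a PureLink kit and made into stranded libraries of polyadenylated RNA, per the labels' protocols. The authors deposited raw fragment counts per gene in 1 table for each species, and nothing in them had been normalised. Per the file headers, read pairs with both ends mapped were counted with featureCounts 2.0.3, on GRCm39 with Ensembl annotation 108 for mouse and on AcoCah2 for spiny mouse, with no strand option. Trim Galore and HISAT2 are named in the submitters' processing notes, with no version. The series' design text describes irradiated fibroblasts, and the sample labels, which describe skin, were followed. Untreated columns carry a code that the labels do not explain and were matched by species letter and replicate number. Of the mouse identifiers, 56236 were given symbols from GENCODE M39 and 744 had none. The deposited gene lengths were used for levels per kb.

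Low counts were removed with filterByExpr, TMM factors were computed, and each gene was tested with edgeR 4.0.16 in R 4.3.3 (glmQLFit, glmQLFTest), treated over untreated within a species, with Benjamini-Hochberg adjustment over all genes tested. The species difference is the species by treatment term over symbols tested in both tables. Ratios of 2 genes within a library were compared by exact two-sided permutation tests, adjusted over 20 tests. Alternatives were DESeq2 1.42.0, other scalings, no low-count filter, a correction for gene length, the replicate number as a block, and leaving out each sample, as well as the canonical transcript length, which was chosen after seeing the data. Values were given sample by sample for the 5 largest called changes in each direction where the average log2 CPM reached 3, for the same numbers of species differences, for the 6 genes highest per length, and for Col1a1, Col1a2, Col3a1 and the type IV genes. Of each other gene list, up to 3 called genes with the largest change in each species were named. The members, gene lists and tests were chosen with earlier results of these data known.

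Replicates within a group differed by more than sampling noise (chi-square per degree of freedom between 11.35 and 165.8 over genes with at least 20 counts), and each sample was kept as its own unit. Such a spread cannot show whether the samples came from separate animals. On simulated counts the mouse fit recovered 54.0% of genes changed by 1 and 89.7% of genes changed by 2 on the log2 scale, among 19740 genes, and the spiny mouse fit 80.8% and 100%, among 14833 genes. Only 113 and 87 mouse genes and 104 and 96 spiny mouse genes were changed there, all averaging at least 20 counts. In the data 61.2% and 55.1% of genes were called and scarce genes were tested too, so these rates do not describe recovery in the data. Floors from 3 counts cover counting error only.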

Additional observations from a re-analysis of the deposited data

Results flagged for a closer look

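In 11 of 156 sets of 4 libraries tested for a single outlying value, 1 library lay far from the other 3, where chance gives about 1 in 20. Untreated mouse replicate 2 was high for Col11a1 (11.3 CPM, others 1.30 to 2.60 CPM), Col12a1 (127 CPM, others 59.5 to 63.9 CPM) and Col27a1 (20.3 CPM, others 7.37 to 8.75 CPM). This is the library with 1931 CPM of follicle markers, and whether those cells hold the 3 transcripts was not tested. Treated mouse replicate 2 was high for Col1a2 (2730 CPM, others 1728 to 1899 CPM) and Col3a1 (3959 CPM, others 2612 to 2787 CPM). Untreated mouse replicate 1 was low for Col4a4 (16.8 CPM, others 24.2 to 25.3 CPM) and Col8a2 (25.9 CPM, others 28.8 to 29.4 CPM), and untreated mouse replicate 3 was high for Col5a2 (207 CPM, others 140 to 149 CPM). In spiny mouse, treated replicate 4 was high for Col7a1 (62.05 CPM, others 41.9 to 42.9 CPM), untreated replicate 3 was low for Col13a1 (1.40 CPM, others 2.06 to 2.08 CPM), and treated replicate 2 was high for Col22a1 (0.643 CPM, others 0.273 to 0.293 CPM).

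The response differed between species, by the species by treatment term of edgeR, for 20 collagens. Spiny mouse minus mouse on the log2 scale, the difference was below 0 for Col3a1 (-1.40), Col4a1 (-1.16), Col4a2 (-1.17), Col4a5 (-0.68), Col5a1 (-0.69), Col5a2 (-1.31) and Col6a3 (-0.79). It was also below 0 for Col11a1 (-4.71), Col11a2 (-2.10), Col12a1 (-1.60), Col13a1 (-1.72), Col14a1 (-1.82), Col15a1 (-0.92) and Col18a1 (-1.15). It was above 0 for Col6a5 (1.42), Col8a1 (1.16), Col10a1 (1.78), Col20a1 (1.84), Col23a1 (0.85) and Col24a1 (2.53).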

How the results depend on the processing

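No direction of a called collagen reversed under the alternatives run, and the counts of called collagens stayed within 1.5 times those reported. Of the called genes, 18 of 24 in mouse, 23 of 27 in spiny mouse and 16 of 20 species differences passed under every alternative. Leaving out 1 sample at a time gave 7 to 12 collagens higher and 11 to 17 lower in mouse. Spiny mouse fits gave 4 to 6 higher and 20 to 22 lower, and species differences 6 to 8 larger and 13 to 17 smaller. Over all genes the same fits called 4565 to 6710 higher and 5902 to 7234 lower in mouse, of 20009 to 20751 tested. In spiny mouse they called 3718 to 4265 higher and 3507 to 3867 lower, of 14908 to 15027 tested. Differences over all genes were called above 0 for 2284 to 3079 and below 0 for 3030 to 4632, of 13686 to 13761 tested. Scaling moved the balance of calls over all genes. The share called higher in mouse was 42.4% with TMM, against 48.4% after DESeq2 scaling, 30.5% after upper-quartile scaling, 28.6% by library size and 53.7% after the length correction. The share of species differences above 0 was 46.4%, 36.9%, 61.2%, 66.2% and 34.0% in the same order, and 36.3% without the low-count filter. With the mouse canonical transcript length, Col1a2 stood at 597 instead of 258 CPM per kb and Col3a1 at 577 instead of 327 CPM per kb, because the deposited lengths join all annotated exons. The replicate numbers did not pair the samples: same-numbered deviations correlated at 0.01 on average in mouse and -0.36 in spiny mouse, and no sample correlated best with its own number. With the replicate block 11246 mouse genes, 7418 spiny mouse genes and 5719 species differences were called, including 8 collagens higher and 14 lower in mouse, 6 and 21 in spiny mouse, and 4 larger and 14 smaller differences. The block ended the calls of mouse Col1a2 (-0.65), Col14a1 (0.56) and Col26a1 (1.12) and of the differences for Col6a5 (1.42) and Col8a1 (1.12), and mouse Col6a6 was called (-0.46). Without the low-count filter the mouse collagen median was 0.05 instead of -0.18, over 43 genes instead of 40, and that of all mouse genes -0.46 instead of -0.15, so that the collagens differed from all genes by 0.51 instead of -0.03. Transcripts near the level of 3 counts, such as Col2a1 and Col9a1, are too scarce at this depth to test.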
